A study of Mus musculus with 36 samples.

Results

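The genes described are 8 mesothelial markers, Wt1, Upk1b, Upk3b, Msln, Lrrn4, Gpm6a, Bnc1 and Muc16, of 24411 genes in the expression tables. They were chosen by their measured levels in adipose mesenchymal stem cells (A-MSCs) in these same libraries, so their levels in A-MSCs are given as a description, without a test. A row was found for 7 of the 8. Muc16 had no row, and no level is given for it.

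The mesothelium is the flat epithelial sheet that lines the pleura, peritoneum and pericardium and covers the organs within, visceral fat included. Its cells combine epithelial keratins with mesenchymal proteins, and they carry a set of surface glycoproteins that most other cells lack. Wt1, a zinc-finger transcription factor, marks the mesothelium from the embryo onward and is also known from the kidney and gonad. Msln (mesothelin) is a surface glycoprotein that binds the large membrane mucin Muc16, the source of the CA125 antigen.

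MSCs were grown from femoral bone marrow (fBM-MSCs), vertebral bone marrow (vBM-MSCs), adipose tissue (A-MSCs) and lung (P-MSCs) of untreated C57BL6/J mice aged 8 weeks. Marrow cells came from crushed bone, whereas fat and lung were minced and digested with collagenase, and the fat depot is not given. All cells were plated on collagen I in a commercial MSC medium with a Rock inhibitor, were used within 3 passages, and were typed by flow cytometry for 4 surface proteins that MSCs carry (the products of Itgb1, Cd44, Ly6a and Vcam1) and 3 that they lack (of Pecam1, Cd34 and Ptprc). RNA was analysed here in 11 of 12 libraries (3 fBM-MSC, 2 vBM-MSC, 3 A-MSC, 3 P-MSC), and open chromatin was profiled by ATAC-seq, which maps where the Tn5 transposase can cut, as 1 pooled peak list per tissue. Neither a treatment nor a genetic change separates the groups.

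The libraries held 19569650 to 40517739 expected counts (median 34414200), and 12509 genes passed the filter of a CPM (counts scaled to library size) of at least 1 in at least 2 libraries. The genes of the 4 positive surface markers were present in every library, summing to 983 to 1124 TPM (transcripts scaled to a fixed sum per library) in A-MSCs and to between 1378 and 2336 TPM elsewhere. Of these 4 genes, 3 were lower in A-MSCs than in the mean of the other tissues by edgeR's quasi-likelihood test, as were 13.9% of all tested genes, and Cd44 was not called (adjusted p = 0.581). The 3 negative marker genes summed to 1.19 to 5.1 TPM in A-MSCs, 1.96 to 5.54 in P-MSCs, 7.33 and 7.87 in vBM-MSCs and 10.3 to 79.2 in fBM-MSCs, where Cd34 averaged 54.0 TPM. The tissues came from the same animals, but no source ties a library to a mouse, and p-values measure the spread between these libraries.

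Wt1 RNA was present in A-MSCs and listed at 0 in every other library. Its levels in the 3 A-MSC libraries were 10.6, 14.9 and 11.7 TPM, from 654, 1187 and 869 expected counts, and all 8 other libraries had 0 counts. The mean of 12.4 ± 2.26 TPM (SD, n = 3) was at least 160-fold that of fBM-MSCs, at least 241-fold that of vBM-MSCs and at least 260-fold that of P-MSCs. These bounds divide by the level that 3 counts, the limit taken for a count of 0, would give in the library of that tissue where this level is highest, and they cover counting error only. In such bulk libraries, fewer cells that carry a transcript and less of it per cell cannot be told apart. Wt1 lies on the + strand of chr2:105126529-105173614 (mm10, GRCm38) with 10 exons, and Wt1os, a non-coding RNA, runs away from the same start region on the opposite strand. The libraries carry no strand, and Wt1os was listed at 0.11, 0.21 and 0.19 TPM in A-MSCs and at 0 elsewhere.

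Upk1b and Upk3b encode uroplakins, membrane proteins named for the urothelium. Upk1b, a tetraspanin, was the most abundant member, at 95.5, 74.8 and 49.9 TPM in A-MSCs. It was also the only measured member with reads in all 11 libraries: 21.3, 35.9 and 32.1 TPM in P-MSCs, 6.62 and 15.0 TPM in vBM-MSCs, and 1.37, 3.54 and 0.48 TPM in fBM-MSCs. Its levels therefore fell in the order A-MSC, P-MSC, vBM-MSC, fBM-MSC, with no overlap between neighbouring tissues. The A-MSC mean of 73.4 ± 22.8 TPM (SD, n = 3) was 2.47-fold the P-MSC mean, 6.80-fold the vBM-MSC mean and 40.9-fold the fBM-MSC mean.

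Upk3b was close to restricted to A-MSCs, at 14.0, 7.76 and 12.6 TPM. Outside them it had reads in 2 of 8 libraries, 8 counts (0.18 TPM) in vBM-MSC replicate 2 and 6 counts (0.15 TPM) in P-MSC replicate 2. The A-MSC mean of 11.4 ± 3.26 TPM (SD, n = 3) was at least 92.1-fold the fBM-MSC level, where all libraries were at 0. RSEM divides reads between Upk3b and its paralog Upk3bl, which was listed at 0, 0 and 0.7 TPM in A-MSCs and reached 1.07 TPM in P-MSC replicate 2.

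Msln had a second tissue. It was at 12.2, 5.37 and 11.1 TPM in A-MSCs and at 1.61, 2.94 and 2.35 TPM in P-MSCs, from 86, 120 and 107 expected counts. In the marrow libraries it had 6 counts in fBM-MSC replicate 1, 4 counts in vBM-MSC replicate 1 and none in the rest. The A-MSC and P-MSC values did not overlap, and the means of 9.58 ± 3.68 and 2.30 ± 0.666 TPM (SD, n = 3 each) differed 4.16-fold.

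Lrrn4, Gpm6a and Bnc1 had no read outside A-MSCs. Lrrn4, a leucine-rich repeat membrane protein, was at 2.37, 1.02 and 2.82 TPM. Gpm6a, a membrane glycoprotein of the proteolipid family best known from neurons, was at 6.25, 1.53 and 3.9 TPM. Bnc1 (basonuclin 1), a zinc-finger protein of epithelial and germ cells, was at 0.30, 0.280 and 0.53 TPM. In these genes the bound nearest to the A-MSC level was that of fBM-MSCs, from which A-MSCs stood at least 30.3-fold higher for Lrrn4, at least 51.1-fold for Gpm6a and at least 7.41-fold for Bnc1. Bnc1 rested on only 29, 35 and 61 expected counts and did not pass the filter. The other 6 measured members passed, and Wt1, Upk3b, Lrrn4 and Gpm6a could do so only through A-MSCs.

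**Figure D1:**
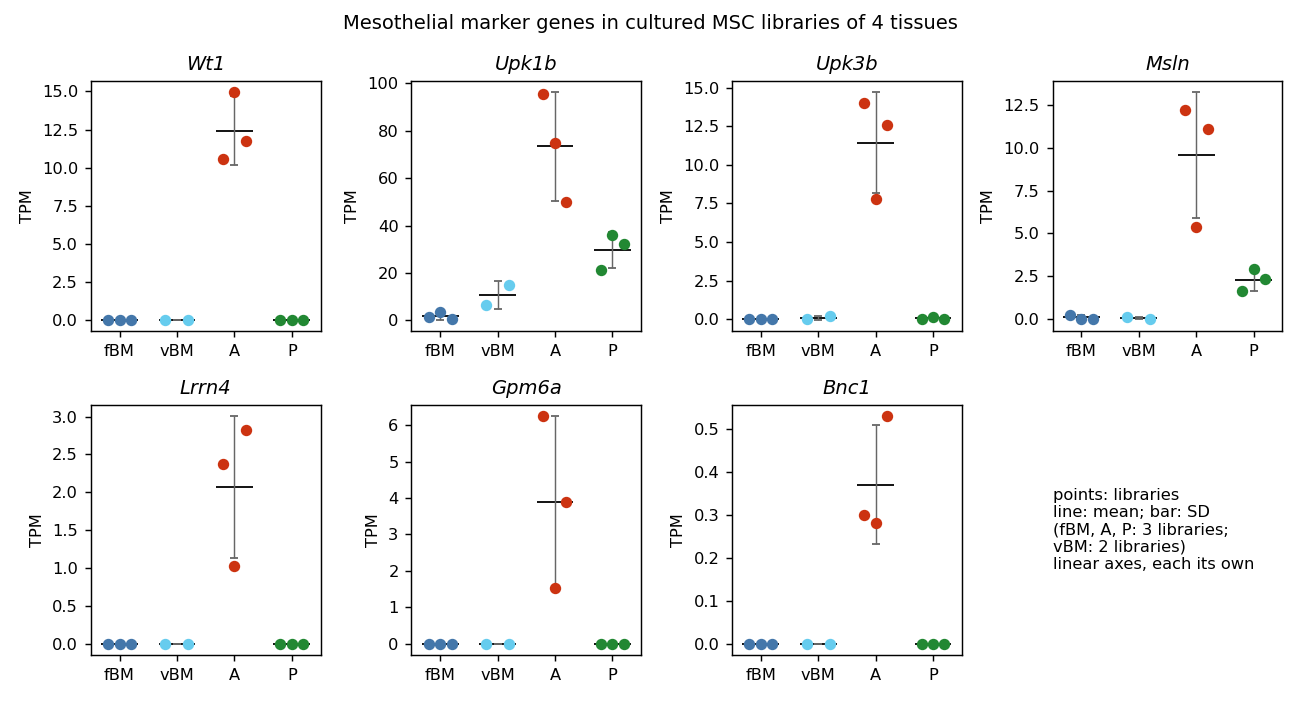
TPM of each measured marker gene (y axis, linear, a separate scale per gene) in the libraries of the 4 tissues (x axis). Points are libraries, lines the mean and bars the SD; the 3 A-MSC libraries lie above every other library for all 7 genes, and for Wt1, Lrrn4, Gpm6a and Bnc1 all other libraries are at 0.

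For all 7 measured members the 3 A-MSC libraries lay above all 8 others, a pattern held by 4.32% of the genes tested. Since the genes were chosen for it, nothing is read from that count. The 7 summed to 92.6 to 141 TPM in A-MSCs, 23.0 to 39.0 in P-MSCs, 6.72 and 15.2 in vBM-MSCs and 0.48 to 3.54 in fBM-MSCs. Upk1b made up most of each sum.

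The members did not move as a block among the 3 A-MSC libraries. Replicate 2 was the lowest library for 5 of the 7 genes (Upk3b, Msln, Lrrn4, Gpm6a, Bnc1) and the highest for Wt1. The ratio of the highest to the lowest A-MSC library was 4.09 for Gpm6a, 2.77 for Lrrn4, 2.28 for Msln, 1.91 for Upk1b, 1.89 for Bnc1, 1.80 for Upk3b and 1.41 for Wt1, against a median of 1.31 over the 11997 tested genes with a TPM above 0 in all 3. Replicate 2 was the lowest of the 3 for 29.0% of tested genes and the highest for 34.9%. As a result the ratio of Wt1 to Gpm6a was 9.77 in replicate 2 but 1.69 and 3.01 in replicates 1 and 3. With 3 libraries these are differences between single cultures and were not tested.

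Other genes split the same libraries in both ways. Krt8 and Krt18, the keratin pair of simple epithelia, followed Wt1, with 21.0 and 27.1 TPM in replicate 2 against 11.1 and 11.2 TPM in replicate 1 and 11.2 and 11.1 TPM in replicate 3. Slpi, a secreted protease inhibitor, followed the other direction at 18.6, 8.77 and 27.8 TPM. So did Fabp4, the fatty acid binding protein of fat cells, at 118, 42.4 and 140 TPM. These genes were singled out after their values were seen.

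**Figure D2:**
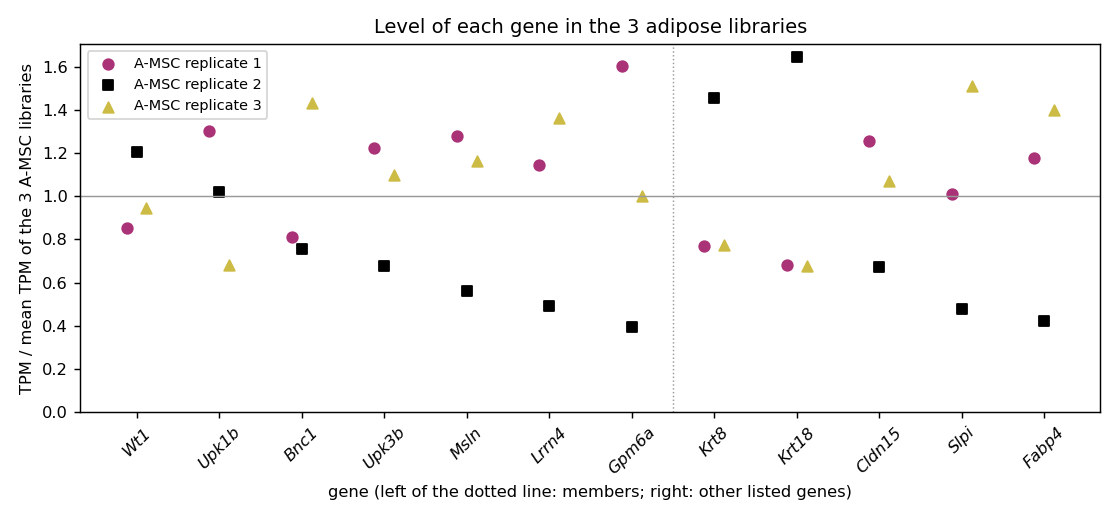
Level of each gene in the 3 A-MSC libraries, as TPM divided by the mean of the 3 (y axis, linear), for the 7 measured members and 5 other listed genes chosen after their values were seen (x axis). Symbols are libraries; replicate 2 (squares) is lowest for 5 members and highest for Wt1, Krt8 and Krt18.

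Upk1b and Msln were higher in P-MSCs than in the mean of the 2 marrow tissues, a contrast that played no part in choosing them. Upk1b rose by 2.67 on the log2 scale (SE 0.427, adjusted p = 0.000353) and Msln by 5.25 (SE 0.84, adjusted p = 0.000357), by edgeR's quasi-likelihood test adjusted over all 12509 genes. Msln rested on few marrow counts, and its log2 fold change was 7.50 without fBM-MSC replicate 1 and 7.36 without vBM-MSC replicate 1, the libraries that held them. In this contrast 23.7% of all tested genes were higher. Every P-MSC library exceeded every marrow library for both genes, a pattern whose share over all tested genes was not counted. For Upk1b the lowest P-MSC value was 21.3 TPM and the highest marrow value 15.0 TPM. Upk3b had 14 counts in the 8 libraries, too few to compare lung with marrow. Wt1, Lrrn4 and Gpm6a had no counts on either side, so no difference between lung and marrow could be measured at this depth.

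Within marrow, Upk1b was higher in vBM-MSCs than in fBM-MSCs, by 2.53 on the log2 scale (SE 0.562, adjusted p = 0.0144 by edgeR), a comparison added after its values were seen. In it 7.56% of tested genes were higher. Without vBM-MSC replicate 2, the library with 15.0 TPM, the call was lost (log2 fold change 1.96, adjusted p = 0.0698), which left vBM-MSCs with 1 library assumed to vary like the others. Without fBM-MSC replicate 2 the log2 fold change was 3.58. Msln was not called (log2 fold change -0.25, adjusted p = 0.945), at 6 and 4 counts.

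In P-MSCs, Upk1b and Msln kept a nearly constant ratio, 13.3, 12.2 and 13.7 in the 3 libraries. In A-MSCs the same ratio was 7.81, 13.9 and 4.49. The P-MSC values lay within the range of the A-MSC values.

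A wider list of 28 genes known from mesothelium or its embryonic precursors was compared to ask how much else of the programme was present. Of these, 24 were tested. Krt7, Krt8, Krt18, Cldn15, Podxl, Tcf21 and C3 passed the filter only through A-MSCs, so that they could hardly come out otherwise and are given by their levels. Of the other 17 genes, 8 were higher in A-MSCs than in the mean of the other tissues and 1 was lower, against 16.0% and 13.9% of all tested genes (1997 and 1740 genes). With limma on log2(TPM + 1) the split over all genes was 1354 higher and 2558 lower, with a median log2 fold change of -0.12. The median log2 fold change of the 17 was 1.01 beside -0.00449 for all genes, and 0.886 from mean TPM with the 1 gene with a tissue at 0 set to 3 counts there. The list was compiled with earlier results of these data known, so its direction is not independent evidence. All A-MSC libraries lay above every other library for Cxadr, Aldh1a2, Ildr2 and Ptgis of the 17, beside 4.32% of all tested genes, and for all of the 7 but Podxl.

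Of the 4 keratins on the list, Krt7, Krt8 and Krt18 passed the filter only through A-MSCs, and Krt19 was not called against the mean of the others (adjusted p = 0.409). Krt7 was at 8.74, 11.7 and 11.4 TPM in A-MSCs and at most 0.66 TPM elsewhere, and the means differed 26.2-fold from the next tissue, vBM-MSC. Krt8 averaged 14.5 TPM and had reads in only 1 other library, at 0.24 TPM in P-MSC replicate 2. Krt18 averaged 16.5 TPM, 19.4-fold the P-MSC mean of 0.85 TPM. Krt19, in contrast, was highest in P-MSCs, at 51.7 to 59.8 TPM, and was lower in A-MSCs (17.1 to 18.9 TPM, log2 fold change -1.39 against P-MSCs, SE 0.428, adjusted p = 0.0289 by edgeR). That call was lost without any single A-MSC or P-MSC library (adjusted p from 0.0622 to 0.0845). Krt8 and Krt18 have processed pseudogenes that can share reads with them, which leaves their exact levels uncertain.

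Of the genes of cell junctions and the cell surface, Cxadr and Ildr2 were called higher, and Cldn1 and Pdpn were not. Cldn15 and Podxl passed the filter only through A-MSCs, so their calls could hardly come out otherwise. Cldn15, a claudin, was at 6.7, 3.59 and 5.71 TPM in A-MSCs, 4.35-fold the next tissue, and Cxadr, an adhesion protein of cell junctions and virus receptor, averaged 2.86 TPM, 4.71-fold the next tissue. The Cxadr call was lost without A-MSC replicate 3 (log2 fold change 2.51, adjusted p = 0.0586). Ildr2, an immunoglobulin-like membrane protein, averaged 1.25 TPM and 3.06-fold. Podxl, a sialomucin of podocytes and mesothelium, was called higher, but it lay under 1 TPM throughout, at 0.06 to 0.50 TPM in A-MSCs, and overlapped P-MSCs. It passed the filter only through A-MSCs, failed it without A-MSC replicate 1 or 3, and was not called with limma-trend (adjusted p = 0.148). Pdpn (podoplanin) was abundant everywhere, with means of 432 TPM in A-MSCs and 346 TPM in fBM-MSCs, and was not called (adjusted p = 0.08). Cldn1, a claudin, was at 0.55, 3.57 and 0 TPM in A-MSCs (adjusted p = 0.0916).

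Among regulators and retinoid enzymes, several genes higher than the mean of the other tissues had levels in P-MSCs near those in A-MSCs. Tcf21, a basic helix-loop-helix factor of visceral mesenchyme, was at 4.2, 4.85 and 3.82 TPM in A-MSCs, at 0.24 to 1.44 TPM in P-MSCs and at 0 in every marrow library. Gata6, a zinc-finger factor, was at 3.94 to 4.78 TPM in A-MSCs and 2.67 to 4.19 TPM in P-MSCs and was not called between these (log2 fold change 0.51, SE 0.69, adjusted p = 0.610). Gata4, its relative, was called higher against the mean of the others but was lower in level than in P-MSCs, with means of 0.750 against 1.59 TPM, and the call was lost without A-MSC replicate 2 (log2 fold change 2.03, adjusted p = 0.108) and with limma-trend (0.26, adjusted p = 0.314). Aldh1a2, which makes retinoic acid and marks embryonic mesothelium, averaged 22.8 TPM in A-MSCs and 19.6 TPM in P-MSCs, and these were not called different (adjusted p = 0.135), while no marrow library exceeded 4.84 TPM. Aldh1a1, a second enzyme of that step, was higher on average than the others (adjusted p = 0.0456) but had its highest mean in vBM-MSCs, 114 against 85.2 TPM. Its call was lost under 10 of 16 alternatives, DESeq2 (adjusted p = 0.0647) and limma-trend (0.0682) among them, and without fBM-MSC replicate 2, vBM-MSC replicate 2 or any single A-MSC or P-MSC library (adjusted p from 0.0561 to 0.171).

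Of the secreted proteins and enzymes, C3, the central complement component, was at 3.26, 2.58 and 4.91 TPM in A-MSCs and at most 0.19 TPM elsewhere, 35.8-fold the next tissue. Slpi averaged 18.4 TPM, 2.39-fold the fBM-MSC mean, and overlapped fBM-MSC replicate 3 at 13.7 TPM. Ptgis, prostacyclin synthase, was high everywhere and highest in A-MSCs, at 266 to 311 TPM, 1.64-fold the vBM-MSC mean. Anxa8, an annexin, was the gene that fell, with a mean of 5.33 TPM against 250 TPM in fBM-MSCs (log2 fold change against the mean of the others -3.35, SE 0.25, adjusted p = 6.41e-06, edgeR).

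Several genes often used to define mesothelium were at or near 0, or were not called. Itln1 and Dmkn had no count in any library. Calb2 (calretinin) was at 0.08, 0 and 0 TPM in A-MSCs and reached 0.71 TPM in fBM-MSC replicate 3, and Rspo1 was at 0.22 to 0.66 TPM in A-MSCs. Nkain4 (means of 26.3 TPM in A-MSCs and 379 TPM in vBM-MSCs) and Ezr (ezrin, a membrane-cytoskeleton linker, 14.3 TPM in A-MSCs against 47.9 TPM in P-MSCs) were not called against the mean of the others.

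**Figure D3:**
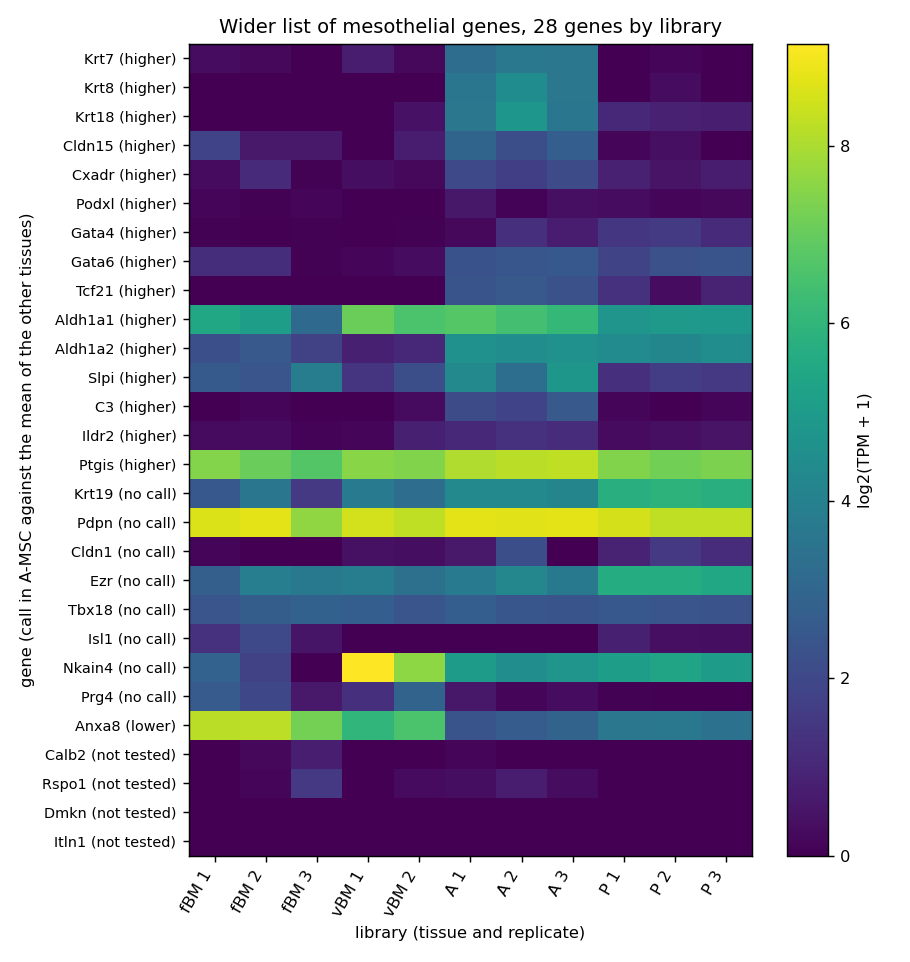
Heat map of log2(TPM + 1) for the wider list of 28 mesothelial genes (rows, with the call in A-MSC against the mean of the other tissues) in the 11 libraries (columns). Krt7, Krt8, Krt18 and C3 are near 0 outside the A-MSC columns, Gata6 and Aldh1a2 are shaded in the A-MSC and P-MSC columns, and Itln1 and Dmkn are at 0 throughout.

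Against P-MSCs alone, 5 of the same 17 genes were higher in A-MSCs and 4 were lower, beside 16.0% and 14.9% of all tested genes. With limma 1358 of all genes were higher and 3155 lower, at a median of -0.16. The genes that rose were Aldh1a1, Slpi, Prg4, Ildr2 and Ptgis. Prg4 averaged 0.29 TPM in A-MSCs and 0.013 TPM in P-MSCs, below the 2.90 TPM of fBM-MSCs and 3.90 TPM of vBM-MSCs. The 7 genes that passed only through A-MSCs could hardly come out lower and are left out of this count. All of them but Podxl were called higher, and nothing is read from those calls. Krt19, Ezr, Isl1 and Anxa8 fell, and Isl1 had no count in A-MSCs. The Krt19 and Anxa8 calls were both lost without A-MSC replicate 1, A-MSC replicate 2, P-MSC replicate 1 or P-MSC replicate 2, each left out alone, which left 2 lower, and the Isl1 call was lost with limma-trend (adjusted p = 0.206). The Ildr2 call was lost without A-MSC replicate 2 or 3 or any single P-MSC library (adjusted p from 0.0563 to 0.0905). The Prg4 call was lost without A-MSC replicate 1 or any single P-MSC library (adjusted p from 0.0534 to 0.0875) and with limma-trend (0.622). The Tcf21 call was lost without any single A-MSC or P-MSC library (adjusted p from 0.0538 to 0.118) with a replicate block (0.0701) and without a filter (0.0578). The median log2 fold change of the 17 was 0.41 beside -0.00593 for all genes, and 0.218 from mean TPM with Isl1 set to 3 counts in A-MSCs. The 2 comparisons share the A-MSC libraries and the P-MSC libraries.

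Of 19 relatives of the members in their gene families, 9 were tested, Egr4 and Lrrn2 through A-MSCs alone. Of the other 7, 1 was higher and 1 was lower in A-MSCs than in the mean of the others, shares near the 16.0% and 13.9% of all tested genes. In none of the 9 did all A-MSC libraries lie above every other library, beside 4.32% of all tested genes. Egr2, of the early growth response zinc-finger family whose DNA-binding domain resembles that of Wt1, was called higher (log2 fold change 1.97, SE 0.369, adjusted p = 0.00246) but had its highest mean in vBM-MSCs, 28.8 against 16.4 TPM. Lrrn2 was called higher at 0.57 TPM, a call lost without a filter and without fBM-MSC replicate 1, vBM-MSC replicate 1, A-MSC replicate 2 or 3, or P-MSC replicate 1 or 3 (adjusted p from 0.0525 to 0.118). Egr1 was lower, at a mean of 20.1 TPM, beside 20.7 TPM in fBM-MSCs, 31.7 TPM in P-MSCs and 100.1 TPM in vBM-MSCs. Bnc2, the paralog of Bnc1, averaged 1.11 TPM in A-MSCs and 1.35 TPM in P-MSCs (adjusted p = 0.103), and Gpm6b, that of Gpm6a, averaged 1.57 TPM in A-MSCs and 7.66 TPM in vBM-MSCs (adjusted p = 0.0937). The uroplakin Upk2 and the mesothelin relative Mslnl had no counts in any library, and Upk1a and Upk3a stayed at or below 0.63 TPM.

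Genes of other cell types were measured beside these. Of 14 epithelial genes, 11 did not pass the filter, and Krt14 passed only through A-MSCs. Esrp2 and Cldn3 passed without them and were called higher, beside 16.0% of all tested genes. Krt14, a basal keratin, was at 4.35, 2.96 and 5.4 TPM with at most 0.32 TPM elsewhere, Esrp2, a splicing factor of epithelia, averaged 6.22 TPM, 3.77-fold the P-MSC mean, and Cldn3 averaged 1.32 TPM, below the 2.15 TPM of P-MSCs. The list summed to 11.5 to 21.1 TPM in A-MSCs, 3.96 to 4.73 in P-MSCs and 1.41 to 1.95 in marrow. Its defining genes were at or near 0 in A-MSCs: Epcam at 0.22 to 0.41 TPM, Cdh1 (E-cadherin) at 0, 0.220 and 0 TPM, and Krt5, Grhl2, Elf3 and Sftpc at 0 in all libraries. Cldn4 was at 9.02 TPM in A-MSC replicate 2 and at 0 and 0.12 TPM in the other two A-MSC libraries.

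Of 13 genes of mesenchymal identity and transition, all tested, 3 were higher (Twist2, Acta2, Tagln) and 5 lower (Snai2, Zeb1, Cdh2, Vim, Fn1), beside 16.0% and 13.9% of all tested genes. Acta2, smooth muscle actin, was at 8060 to 8453 TPM in A-MSCs (log2 fold change 1.97, SE 0.111, adjusted p = 1.01e-06). Tagln (transgelin) was at 3142 to 3682 TPM, and S100a4, at 9741 to 12158 TPM, was not called (adjusted p = 0.815). Levels on this list ranged widely in A-MSCs, from means of 4.15 TPM for Twist1 and 5.10 TPM for Zeb1 to those of Acta2 and S100a4.

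The 6 adipocyte genes summed to 46.5 to 163 TPM in A-MSCs, 4.94 to 6.75 in P-MSCs and 27.2 to 77.0 in marrow. Fabp4 alone was called higher among the 3 tested, beside 16.0% of all tested genes (log2 fold change 2.72, SE 0.373, adjusted p = 0.000378). Adipoq (adiponectin) was at 2.69, 0 and 14.6 TPM in A-MSCs, Pparg was not called (adjusted p = 0.960), and Lep was at 0 throughout. Among the 3 A-MSC libraries Adipoq, Fabp4 and Pparg were lowest in replicate 2, whereas Plin1 (0, 0.38 and 1.97 TPM) and Cidec (0, 0.02 and 0.8 TPM) were lowest in replicate 1. The 5 endothelial genes summed to 3.25 to 51.7 TPM in A-MSCs, 2.54 to 8.1 in P-MSCs and 0 to 1.03 in marrow, and of the 3 genes that passed the filter outside A-MSCs Emcn was higher, beside 16.0% of all tested genes. Most of the highest sum was Emcn (endomucin), at 49.5 TPM in replicate 1 against 5.51 and 2.32 TPM in replicates 2 and 3, and Pecam1, a negative surface marker, was at 3.84, 0.340 and 0.28 TPM. Cdh5 (VE-cadherin) was at 0.81, 1.05 and 0.13 TPM, and Tek was not called (adjusted p = 0.412).

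The 5 macrophage genes summed to 11.4 to 14.3 TPM in A-MSCs and 4.64 to 22.7 TPM across the rest, and Csf1r alone of the 3 tested was higher, beside the same 16.0% (5.46 to 6.56 TPM, adjusted p = 2.60e-05). Of the 5 Schwann cell genes, S100b was lower in A-MSCs (adjusted p = 0.0121, edgeR), as were 13.9% of all tested genes. It averaged 0.36 TPM in A-MSCs and 0.24 TPM in P-MSCs, not called different (adjusted p = 0.692, edgeR), against 33.0 TPM in fBM-MSCs and 11.9 TPM in vBM-MSCs. The list summed to 0.03 to 1.14 TPM in A-MSCs and 0 to 0.83 TPM in P-MSCs, and Sox10 and Foxd3 were at 0 in every library. The part of any of these cell types in the levels of the mesothelial genes was not tested.

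Open chromatin was examined next at the same genes. The deposited lists were called on pooled replicates and hold no replicate values, so the ATAC-seq results carry no test. Summits with a -log10 q of at least 7 were kept, 71345 in A-MSCs, 64057 in P-MSCs, and 64300 and 59536 in the femoral and vertebral marrow MSCs. At the 36249 A-MSC summits found in all 4 tissues, the median fold enrichment over the genome-wide background was 12.9 in A-MSCs, 14.0 in P-MSCs, 11.4 in fBM-MSCs and 11.8 in vBM-MSCs, so heights were compared across lists with that difference in mind.

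Only Wt1 and Upk1b of the 8 genes had an A-MSC summit within 1 kb of a transcription start, whereas 89.6% of the tested genes did. In both cases no other tissue had a summit at this threshold, a pattern of 0.912% of tested genes. At Wt1 it lay 16 bases upstream of the start with a fold enrichment of 25.0 (-log10 q 77.8), and no other tissue had a summit of any height there. Since Wt1os starts in the same window, the summit belongs to both. At Upk1b it was weaker, 2 bases from the start, with 5.9 in A-MSCs (-log10 q 8.20) and 4.4 in P-MSCs (-log10 q 4.60). Msln had only a P-MSC summit under the threshold (fold enrichment 5.1, -log10 q 6.30) at its start, Bnc1 only an fBM-MSC one (3.7, -log10 q 3.0), and Upk3b, Lrrn4, Gpm6a and Muc16 had none in any tissue.

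Around Wt1, from 50 kb before to 50 kb after the gene, A-MSCs had 16 summits, fBM-MSCs shared 5 of these sites, vBM-MSCs 1 and P-MSCs none. Of the 16, 11 had no summit of another tissue at the threshold within 500 bases, against 13.2% of all A-MSC summits. The tallest was in an intron 36.4 kb from the start, at 31.3 in A-MSCs, 7.4 in fBM-MSCs and 5.1 (under the threshold) in P-MSCs. Upstream, within Wt1os, a site at -14.2 kb reached 26.1 in A-MSCs, with 4.4 in fBM-MSCs and 3.3 in vBM-MSCs, both under the threshold. A site at -9.8 kb reached 21.0 in A-MSCs and 4.4 in fBM-MSCs. Just past the last exon, at 47.9 kb, A-MSCs had 19.5 and fBM-MSCs 6.3. Wt1 RNA, by comparison, was not detected in fBM-MSCs.

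Upk1b lies on the - strand of chr16:38773184-38800203, with 8 exons, and its summits were mostly shared with lung. Of 7 A-MSC sites within 50 kb, 3 were shared with P-MSCs alone, against 9.79% of all A-MSC summits. The strongest, 10.1 kb upstream, had a fold enrichment of 31.3 in A-MSCs, 26.9 in P-MSCs and 9.2 in vBM-MSCs, and no fBM-MSC summit of any height. This is the order in which the RNA levels of Upk1b stood. A second, in an intron 18.1 kb from the start, was found in all 4 tissues at 22.1 (A-MSC), 22.8 (P-MSC), 8.8 (fBM-MSC) and 5.9 (vBM-MSC), which is not that order.

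Msln, on the - strand of chr17:25748613-25754378, had a site 2.6 kb upstream of its start in all 4 tissues, at 25.4 in A-MSCs and 21.0 in P-MSCs, and lower in both marrow tissues, at 10.3 (vBM-MSC) and 6.6 (fBM-MSC). A-MSCs and P-MSCs, the tissues with most Msln RNA, were the 2 highest. None of the 7 A-MSC summits within 50 kb of Msln was found in A-MSCs alone.

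**Figure D4:**
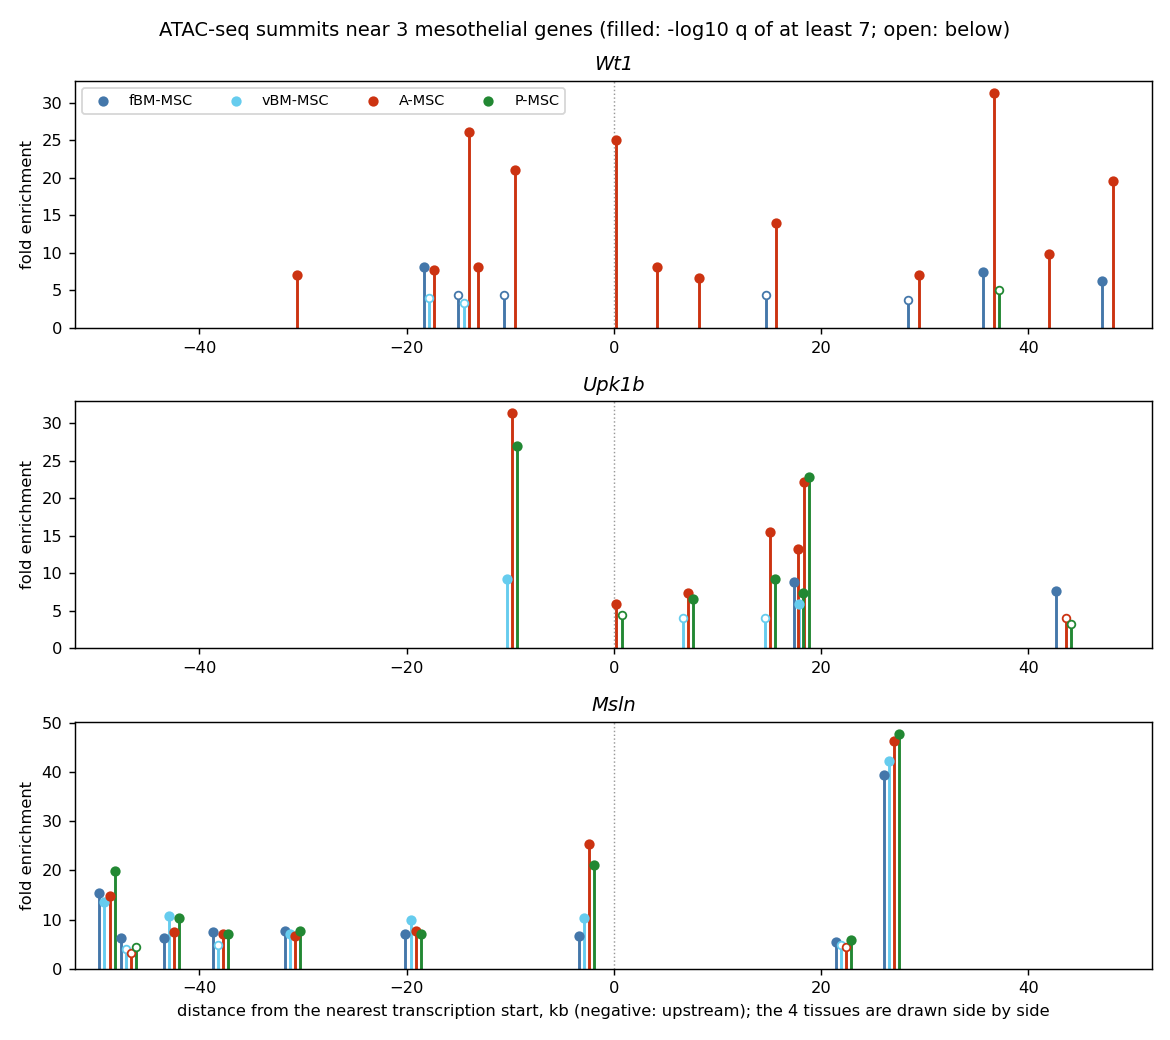
Fold enrichment (y axis, linear) of ATAC-seq summits in each tissue against the distance from the nearest start of Wt1, Upk1b and Msln (x axis, kb, negative upstream), at sites where some tissue reached a -log10 q of 7. Filled symbols passed that threshold and open ones did not, and sites more than 50 kb from the start are not drawn. All Wt1 sites drawn but that at -17.6 kb are tallest in A-MSCs. The site 10.1 kb upstream of Upk1b stands at 31.3 in A-MSCs and 26.9 in P-MSCs.

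Such sites were few at the remaining genes. Upk3b (+ strand, chr5:136038496-136044993) had no summit inside the gene, and 2 A-MSC summits without a partner within 50 kb, at 7.4 and 5.9. Its tallest neighbour, 13.3 kb downstream of the start, was alike in all tissues, at 27.2 to 37.2. Lrrn4 (- strand, chr2:132868516-132880862) had 1 summit of A-MSCs alone, 3.9 kb upstream, at 6.6, and a P-MSC summit in an exon at 1.2 kb, at 7.7, though no Lrrn4 read was found in P-MSCs. Bnc1 (- strand, chr7:81966662-81992299) had 1 of A-MSCs alone past its end, at 5.5. Gpm6a (+ strand, chr8:54779434-55060878) had no A-MSC summit within 50 kb, and its 2 summits were of fBM-MSCs, where no Gpm6a read was found. Muc16 (- strand, chr9:18495448-18674603) had 3 fBM-MSC summits inside the gene and no A-MSC one. In all, 16 of the 48 A-MSC summits near the 8 genes (33.3%) had no partner at the threshold, against 13.2% of all A-MSC summits. Of those without a partner, 11 were at Wt1, which held 16 of the 48. Over the other genes it was 5 of 32.

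The 8 sites with an A-MSC -log10 q of at least 50 that lay within 20 kb of a member gene, and away from promoters, exons and the starts of other genes, are shown so that the strong open sites can be read as sequence. That limit was chosen after the values were seen. Each is 201 bases of GRCm38 around the A-MSC summit, and capitals mark the letters of 4 motifs, on either strand. GATA factors were searched as AGATAA, with AGATAG as a second spelling. The spellings that open with T, TGATAA for the former and TGATAG for the latter, were searched with them. TEAD factors were searched as GGAATG. AP-1, the Fos and Jun dimer, was searched as TGAGTCA, with TGACTCA as its second spelling. WT1 was searched as GCGTGGGAG and, more loosely, as GNGTGGGNG. The looser WT1 form includes the stricter one.
Wt1 -14.2 kb, chr2:105112184-105112384, + strand: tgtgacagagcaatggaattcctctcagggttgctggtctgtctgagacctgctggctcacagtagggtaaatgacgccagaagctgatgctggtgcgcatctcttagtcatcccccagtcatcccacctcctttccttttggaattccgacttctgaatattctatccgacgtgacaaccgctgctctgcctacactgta
Wt1 -9.8 kb, chr2:105116612-105116812, + strand: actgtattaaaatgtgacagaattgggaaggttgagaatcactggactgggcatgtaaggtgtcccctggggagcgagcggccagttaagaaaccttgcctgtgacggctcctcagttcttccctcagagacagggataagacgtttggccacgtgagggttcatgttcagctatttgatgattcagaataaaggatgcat
Wt1 36.4 kb, chr2:105162859-105163059, + strand: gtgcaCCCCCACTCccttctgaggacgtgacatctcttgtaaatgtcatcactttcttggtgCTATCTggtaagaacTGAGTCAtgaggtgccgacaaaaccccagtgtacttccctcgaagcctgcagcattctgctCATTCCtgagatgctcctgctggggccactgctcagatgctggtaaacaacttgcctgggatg
Wt1 47.9 kb, chr2:105174331-105174531, + strand: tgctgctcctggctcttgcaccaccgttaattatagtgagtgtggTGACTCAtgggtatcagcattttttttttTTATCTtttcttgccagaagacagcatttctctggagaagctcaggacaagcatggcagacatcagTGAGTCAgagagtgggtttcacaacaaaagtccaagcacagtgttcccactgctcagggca
Upk1b -10.1 kb, chr16:38810178-38810378, + strand: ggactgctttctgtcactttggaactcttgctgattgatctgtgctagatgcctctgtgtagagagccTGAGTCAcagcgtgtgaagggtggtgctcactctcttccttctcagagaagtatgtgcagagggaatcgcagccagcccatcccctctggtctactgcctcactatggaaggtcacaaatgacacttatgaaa
Upk1b 18.1 kb, chr16:38781999-38782199, + strand: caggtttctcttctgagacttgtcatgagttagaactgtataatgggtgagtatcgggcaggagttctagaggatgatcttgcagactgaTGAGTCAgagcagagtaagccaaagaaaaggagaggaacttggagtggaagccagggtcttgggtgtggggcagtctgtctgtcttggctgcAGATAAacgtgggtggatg
Upk3b 13.3 kb, chr5:136051654-136051854, + strand: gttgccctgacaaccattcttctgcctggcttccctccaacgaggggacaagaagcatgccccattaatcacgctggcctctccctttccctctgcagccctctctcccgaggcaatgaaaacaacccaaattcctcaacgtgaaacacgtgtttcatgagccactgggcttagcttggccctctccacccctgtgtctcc
Msln -2.6 kb, chr17:25756900-25757100, + strand: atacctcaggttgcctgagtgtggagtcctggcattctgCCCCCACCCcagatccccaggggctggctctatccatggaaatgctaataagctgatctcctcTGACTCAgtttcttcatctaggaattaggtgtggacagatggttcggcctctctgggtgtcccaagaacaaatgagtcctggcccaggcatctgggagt

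The AP-1 letters were found in 5 of these 8 windows, GATA in 3, WT1 in 2 and TEAD in 1. Over all A-MSC summits, such windows held AP-1 in 23.9%, GATA in 24.2%, TEAD in 19.9% and WT1 in 8.1%. These shares were taken at a -log10 q of at least 7, with promoters and exons included, so their sites were not chosen like the 8. Over the 44 A-MSC sites near the 8 genes the counts were 10 for AP-1, 15 for GATA, 10 for TEAD and 6 for WT1. In the 9418 summits of A-MSCs alone the shares were 39.4% for GATA, 24.1% for TEAD, 19.3% for AP-1 and 7.9% for WT1. The intronic Wt1 site at 36.4 kb held all 4 motifs, and the upstream Wt1 sites at -14.2 and -9.8 kb and the Upk3b site at 13.3 kb, which was open in all 4 tissues, held none of them. A match of letters shows neither that a factor binds there nor that it acts there.

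Promoter sequences in the RefSeq table (GRCm38.p6) matched 5 of the 8 genes, Upk3b, Lrrn4, Bnc1, Gpm6a and Muc16. The 250 bases before the start are shown for Upk3b and Lrrn4, 2 genes with A-MSC RNA and no summit at the start, with the same motifs in capitals. They read 5′ to 3′ on the strand of the gene.
Upk3b promoter, chr5:136038246-136038495, + strand: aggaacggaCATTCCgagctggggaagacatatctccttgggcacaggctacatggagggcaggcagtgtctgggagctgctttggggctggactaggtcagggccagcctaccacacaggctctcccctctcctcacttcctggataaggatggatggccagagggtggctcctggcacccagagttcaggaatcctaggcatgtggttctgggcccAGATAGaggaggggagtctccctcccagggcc
Lrrn4 promoter, chr2:132880863-132881112, - strand: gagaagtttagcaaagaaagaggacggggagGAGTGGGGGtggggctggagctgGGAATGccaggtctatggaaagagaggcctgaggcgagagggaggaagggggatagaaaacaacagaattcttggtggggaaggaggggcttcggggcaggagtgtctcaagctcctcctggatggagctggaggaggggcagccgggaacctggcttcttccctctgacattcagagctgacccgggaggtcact

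Upk3b held GATA and TEAD letters and Lrrn4 held TEAD and WT1 letters, and of all 32851 promoters listed 26.5% held GATA, 12.6% TEAD, 12.7% WT1 and 4.5% AP-1. Their GC contents of 60.8% and 59.2% stood beside a median of 52.4% over all promoters. The Bnc1 promoter, at 83.6% GC, held none of the motifs.

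The genes whose levels tracked the members most closely over the 11 libraries were sought among 9353 other genes at a mean of at least 2 TPM in A-MSCs, by Pearson's r to the mean log2(TPM + 1) of the 7 members. The 12 closest were Nedd4l, Ms4a4d, Des, Fam84b, Tm2d2, Maob, Vdac2, Folr1, Pdlim3, Nnat, Soat1 and Esrp2, with r from 0.985 to 0.965. The points share their libraries and the strong A-MSC against other split. Des (desmin, a muscle intermediate filament) was at 163, 245 and 216 TPM in A-MSCs and at most 8.61 TPM elsewhere. Folr1 (folate receptor alpha) was at 23.9, 19.0 and 28.8 TPM and at most 1.61 TPM elsewhere. Nnat (neuronatin) was at 11.4, 17.2 and 15.8 TPM and at most 2.88 TPM elsewhere. By Spearman's rho none of these 12 was among the closest 12, and with a pseudocount of 0.1 TPM 6 were, so the choice of measure largely sets this list.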

How the data were processed

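RNA was measured by Smart-seq2, which is not strand-specific and has no molecular identifiers, and open chromatin by FAST-ATAC. The authors ran RSEM with STAR against mm10 and deposited, per library, the expected count of each gene (not normalized), the TPM and FPKM (scaled for effective length and library size) and the effective length, an "other" value used here only to turn 3 counts into TPM. For ATAC-seq the authors trimmed reads (Trim Galore), aligned them (Bowtie), removed duplicates (Picard), shifted for Tn5 and called peaks (MACS2, no local background), 1 list per tissue from 6 samples (3 replicates). The deposited lists give a fold enrichment (ratio), a -log10 q and a summit offset, an other value. Versions of these tools are not given in the sources used here.

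After rounding, the expected counts entered the two-sided quasi-likelihood test of edgeR 4.0.16 (R 4.3.3; TMM; 4 tissues in 1 model of 11 libraries; genes with a CPM of 1 or more in 2 or more libraries; Benjamini-Hochberg over 12509 genes, adjusted p under 0.05). Total counts of 19569650 to 40517739 set the precision, and floors of 3 counts cover counting error only. The biological coefficient of variation was 27.8%. The fit and the motif search were tested on simulated data. Replicate 3 of vBM-MSCs was not analysed here. Transcription starts came from curated RefSeq transcripts of GRCm38, and sequences were read with samtools 1.23.1. Of tested genes, 11519 had such a transcript on the numbered chromosomes. Python 3.11.15, pandas 2.3.3, numpy 2.4.6 and matplotlib 3.10.9 were used.

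The 8 members and all gene lists were chosen with earlier results of these data known. Named genes were the members, all called genes of the wider list and the 4 most abundant of the rest, the 3 most abundant of each other list and those called at a log2 fold change of at least 2, and the 12 genes most like the members. Other genes are named as examples chosen after their values were seen. Alternatives were RLE size factors, DESeq2 1.42.0, limma-trend 3.58.1 on log2(TPM + 1), no filter, a replicate block, leaving out each library, other expression scales, and other limits on summits.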

Additional observations from a re-analysis of the deposited data

How the results depend on the processing

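The count of wider-list genes higher in A-MSCs, 15 of all 24 tested against the mean of the others, was 13 to 16 without each library and 12 to 16 under the other settings. The count lower was 1, and 2 with DESeq2. Against P-MSCs 11 were higher (8 to 14 without each library) and 4 lower, 2 to 4 without each library. Of the 24 genes, 17 passed the filter without A-MSCs. Among these, 8 were higher against the mean of the others and 5 against P-MSCs, beside 16.0% of all tested genes in each comparison. The rest passed only through A-MSCs and could hardly come out lower, so the ranges do not show how firm their calls are. For the 9 relatives tested, Egr4 and Lrrn2 through A-MSCs alone, 2 higher became 1 without a filter and 1 to 2 without each library. The 1 lower became 1 to 2. Over 254 refits of the 16 called wider-list genes none changed sign and 14 lost the call, 10 of them Aldh1a1. The others were Gata4 and Podxl under limma-trend, Gata4 without A-MSC replicate 2 and Cxadr without A-MSC replicate 3. Podxl did not pass the filter without A-MSC replicate 1 or 3, and so had no value there. Of the 16 genes, Krt7, Krt8, Krt18, Cldn15, Podxl, Tcf21 and C3 passed the filter only through A-MSCs, so their sign could hardly change. Upk1b and Msln stayed higher in P-MSCs than in marrow throughout, at log2 fold changes of 2.42 to 3.19 and 4.69 to 7.50 without each library. Upk1b in vBM-MSCs against fBM-MSCs ranged from 1.96 to 3.58 without each library.

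On the log2(value + pseudocount) scale, with 1 TPM in the report, the A-MSC excess over the highest other tissue was 3.73 for Wt1, 3.48 for Upk3b, 1.57 for Lrrn4, 2.16 for Gpm6a and 0.45 for Bnc1, and with a pseudocount of 0.1 it was 6.95, 6.06, 4.33, 5.11 and 2.19. On TMM-scaled CPM it was 4.76 for Wt1, 2.50 for Lrrn4, 2.99 for Gpm6a and 1.14 for Bnc1. On FPKM it was 3.26 for Wt1 and 3.04 for Upk3b. Upk1b (1.26) and Msln (1.63) moved by less than the spread between replicates. The direction was fixed by how the genes were chosen. Members with an A-MSC promoter summit, 2 in the report, were 1 at a -log10 q of 20 and 4 within 5 kb, and those in A-MSCs alone were 1 at that limit and 1 with every deposited summit. The 16 unpartnered A-MSC summits became 27 with every deposited summit and 8 at a -log10 q of 20. Of the 12 genes most like the members, 0 were shared by Spearman's rho and 6 with a pseudocount of 0.1.

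Same-numbered libraries did not deviate together (15 pairs, r from -0.0279 to 0.125, 1 above 0.1, 5 of 11 libraries closest to their own number), so the numbers were not used as pairs. With the replicate block the wider list had 16 genes higher against the mean of the others, those that passed the filter only through A-MSCs included. The 2 vBM-MSC libraries and the 3-count floor limit what could be seen at low levels.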
